A study of Mus musculus with 54 samples.

Results

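Saa3, Lcn2, Hp, Wfdc17, Slpi, S100a8 and S100a9 code for secreted proteins of the acute phase response and of antimicrobial defence, and their RNA was followed here in microglia (MG) and in subdural CNS-associated macrophages (sdCAMs) of the mouse. The members were chosen by function, with earlier results of these data known, and were taken by symbol from the count tables. All 7 were found among 33280 gene symbols. The question addressed was how far these genes responded to systemic lipopolysaccharide (LPS), a cell wall component of Gram-negative bacteria, in each macrophage population. A further question was whether their levels after LPS differed once the macrophages had been depleted and had returned.

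Acute phase proteins are made within hours of infection or injury, mostly by the liver, when cytokines such as interleukin-6 and interleukin-1 act through STAT3, C/EBP factors and NF-kB. Macrophages, neutrophils and epithelia also secrete some of them, together with small proteins that bind iron, zinc, haem or proteases and so limit microbial growth and tissue damage. In the brain, microglia and the macrophages of the leptomeninges and perivascular spaces meet blood-borne signals at different distances from the circulation.

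The series held 54 RNA-seq libraries in 18 groups of 3, made from cells sorted from the brain without its choroid plexuses. WT and Ccr2-/- mice, which lack the chemokine receptor that monocytes need to leave the bone marrow, were left untreated and injected with PBS, or were given vehicle (CTL) or BLZ945, which blocks the CSF1 receptor and thereby removes macrophages, and injected with LPS 8 weeks later. Cells were taken 12 h after the injection, and MG and sdCAMs were collected from each mouse. The labels number the mice, so p-values measure the spread between 3 mice of a group. In these mice LPS was never given without vehicle or BLZ945 and PBS was given to untreated mice alone, so the effect of vehicle and that of LPS cannot be told apart.

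Ccr2CreERT2/CreERT2:R26tdT/tdT mice, called reporter mice here, carry a tamoxifen-inducible Cre driven from the Ccr2 locus and a tdTomato reporter. All of them received tamoxifen and BLZ945, followed by LPS or PBS, and their sdCAMs were sorted into tdT+ cells, whose ancestors had active Ccr2 at the time of tamoxifen, and tdT- cells. The tdT+ and tdT- counts of a mouse were added wherever reporter sdCAMs were treated as one population. Such sums weight each population by its sequencing depth and not by its share of cells, and the values per mouse depend on that depth. LPS mouse 1 had 4887903 tdT- and 2060240 tdT+ counts, and PBS mouse 174 had 9760076 and 9023712. The reporter libraries formed batch 2 of the labels and the WT and Ccr2-/- libraries batch 1, so genotype and batch cannot be told apart and no test was made across them. No test was made between WT and Ccr2-/- mice either. The authors describe a batch correction of their WT and Ccr2-/- counts, and the counts used here were not corrected. The part of batch in level differences between these genotypes was not tested.

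Total counts ranged from 7497764 to 11330781 in the MG libraries and from 1705930 to 10727796 in the sdCAM libraries, and 7 sdCAM libraries had fewer than 3000000. These were WT mice 4, 8, 11, 14 and 15 and the tdT+ libraries of LPS mice 1 and 7. Summed sdCAM markers (Mrc1, Pf4, Cd163, Lyve1, Ms4a7, Clec12a and Apoe) reached 2502 to 61827 CPM (counts of a gene scaled to a library total of 1000000) in sdCAM libraries and 135 to 658 CPM in MG libraries, with 1 sdCAM library far below its group, the tdT+ library of LPS mouse 5. Summed microglial markers stood there at 82.7% of their level in the MG library of the same mouse, against 1.32 to 5.75% in the other 5 reporter sdCAM libraries after LPS. Ly6g, the defining surface marker of neutrophils, had 0 counts in all 54 libraries. For the Ccr2-/- libraries after LPS the titles and the cell type entries of the labels contradict each other, and the entries, which the markers matched, were used. The labels mark 6 WT sdCAM libraries (mice 1, 4, 6, 9, 12 and 14) with an IEG correction that they do not explain, and 2 reporter columns carry each other's index number (tdT- of LPS mouse 1 and tdT+ of LPS mouse 7), so results that turn on them are also given with the marked libraries alone or with the columns exchanged.

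The bases before the annotated starts are shown for the 6 members matched in the promoter table, all but Hp, because they can be searched for the letters that the acute phase factors named above are known to bind (RefSeq, GRCm38.p6, printed up to the most upstream annotated transcript start). Capitals mark matches to the C/EBP letters TTNNGNAA on either strand (TTNCNNAA on the other). Each sequence is written 5′ to 3′ on the strand of its gene.
Saa3, chr7:46715701-46715926, minus strand: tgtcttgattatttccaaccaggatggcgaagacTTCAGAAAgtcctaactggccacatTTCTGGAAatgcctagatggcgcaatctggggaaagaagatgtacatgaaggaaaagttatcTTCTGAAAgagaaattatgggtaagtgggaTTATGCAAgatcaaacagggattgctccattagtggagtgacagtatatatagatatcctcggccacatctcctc
Lcn2, chr2:32387798-32387989, minus strand: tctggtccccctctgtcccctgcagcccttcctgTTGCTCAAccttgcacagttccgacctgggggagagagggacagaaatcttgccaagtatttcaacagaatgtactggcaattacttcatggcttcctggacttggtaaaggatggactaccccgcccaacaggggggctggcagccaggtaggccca
Wfdc17, chr11:83703806-83703990, plus strand: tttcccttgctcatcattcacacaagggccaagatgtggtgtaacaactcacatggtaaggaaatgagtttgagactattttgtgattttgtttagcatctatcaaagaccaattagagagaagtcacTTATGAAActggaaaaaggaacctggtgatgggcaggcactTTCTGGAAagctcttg
Slpi, chr2:164356508-164356757, minus strand: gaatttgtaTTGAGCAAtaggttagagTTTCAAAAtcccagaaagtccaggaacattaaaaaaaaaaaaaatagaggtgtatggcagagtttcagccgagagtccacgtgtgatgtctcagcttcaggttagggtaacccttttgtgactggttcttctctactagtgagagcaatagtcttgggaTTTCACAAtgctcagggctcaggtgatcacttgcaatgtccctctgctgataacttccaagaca
S100a8, chr3:90668821-90668977, plus strand: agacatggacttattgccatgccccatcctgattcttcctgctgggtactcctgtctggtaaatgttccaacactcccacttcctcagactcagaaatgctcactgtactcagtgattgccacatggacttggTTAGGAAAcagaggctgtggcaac
S100a9, chr3:90695722-90695971, minus strand: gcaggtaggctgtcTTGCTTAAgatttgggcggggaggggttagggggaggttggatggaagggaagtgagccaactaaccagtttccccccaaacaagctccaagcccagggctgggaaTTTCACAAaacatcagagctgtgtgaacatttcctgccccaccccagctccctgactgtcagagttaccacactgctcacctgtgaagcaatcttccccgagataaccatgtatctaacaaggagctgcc

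All 6 sequences held at least 1 C/EBP match, with 4 in Saa3, 3 in Slpi, 2 each in Wfdc17 and S100a9 and 1 each in Lcn2 and S100a8. The letters are short and common: 36.8% of 32851 promoters held them within 250 bases. Neither the NF-kB pattern searched (GGG, any 2 bases, TT, any base and CC, in 4.11% of promoters), nor the STAT letters TTCNNNGAA (7.02%), nor the AP-1 letters TGANTCA (6.75%), each searched on both strands, occurred in these windows. Other forms of these sites were not searched.

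Saa3, a serum amyloid A made outside the liver by macrophages among other cells, was the most abundant transcript of most sdCAM libraries after LPS. In WT sdCAMs after CTL and LPS it took 35.8%, 23.1% and 23.0% of all counts in mice 1, 4 and 6 (27.3% ± 7.34, SD, n = 3). Untreated WT sdCAMs held 333, 26.4 and 1667 CPM in mice 9, 14 and 15. WT MG after LPS had 1939.7, 112 and 422 CPM, and untreated WT MG between 0.222 and 1.07 CPM. Every LPS library was therefore above every untreated library in both cell types, as it was for 5.79% of all genes tested in sdCAMs and 27.1% in MG, but the LPS values of MG and the untreated values of sdCAMs spread over the same range.

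After CTL and LPS each Ccr2-/- sdCAM library held a lower share of Saa3 than any WT sdCAM library, a difference that was not tested. How many of all genes showed such a gap was not counted. These WT libraries all carry the IEG mark, and no Ccr2-/- library does. Ribosomal protein and mitochondrially encoded genes took 3.53 to 3.98% of counts in these WT libraries and 0.932 to 1.01% in the Ccr2-/- ones. The part of these differences in the Saa3 share was not tested. The 3 Ccr2-/- sdCAM libraries gave 5.93, 6.71 and 5.88% of counts (6.17% ± 0.465, SD, n = 3), against 101, 1.48 and 110 CPM in untreated sdCAMs. Saa3 in Ccr2-/- MG stood at 1453, 619 and 1351 CPM after LPS and at 3.01 to 7.05 CPM without it. Untreated mouse 3m was the only one of 9 mice given PBS in which Saa3 was lower in sdCAMs (12 counts) than in MG (76 counts).

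In reporter mice, all given BLZ945, sdCAMs held 10.8, 17.7 and 10.8% Saa3 per mouse after LPS (13.1% ± 3.97, SD, n = 3) and 30.9 to 60.8 CPM after PBS. Reporter MG reached 5224, 2887 and 1860.5 CPM after LPS and 6.25 to 16.97 CPM after PBS. No LPS library overlapped with a PBS library in either population, which held in this direction for 19.1% of all genes tested in sdCAMs and 18.2% in MG.

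**Figure D1:**
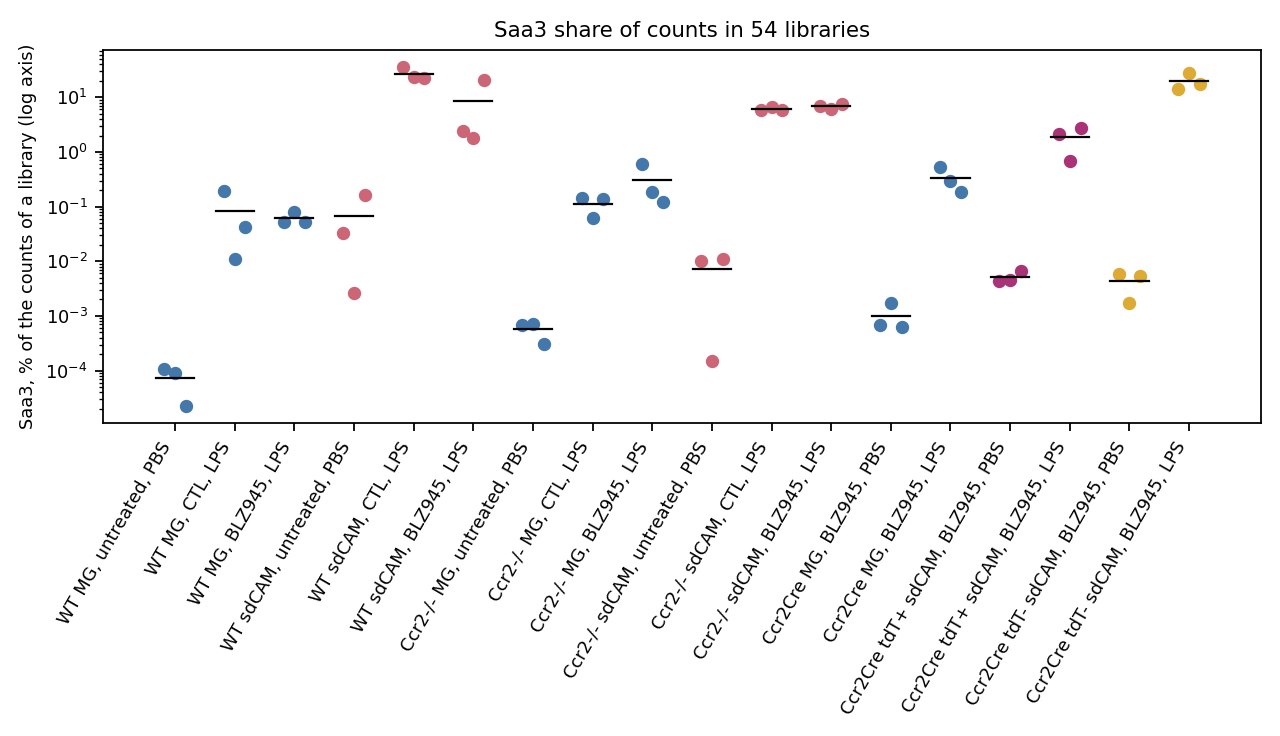
Share of all counts taken by Saa3 in each of the 54 libraries (y axis, percent of counts, logarithmic), with the groups along the x axis and a bar at each group mean. The sdCAM groups after LPS reach between 0.680 and 35.8%, above every MG library.

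A gene is said to have risen, fallen or been called where its Benjamini-Hochberg adjusted p over all genes tested lay below 0.05 and its log2 fold change, on the scale of edgeR with TMM factors, exceeded 1 in size. TMM factors and plain CPM differ in WT sdCAMs, where scaling by library totals alone moved the median LPS change of all genes from -0.07 to -1.54. For Saa3 these changes came to 10.09 in WT MG (SE 1.13, edgeR adjusted p = 6.43e-05), 7.57 in Ccr2-/- MG (SE 0.67, edgeR adjusted p = 1.82e-06) and 8.09 in reporter MG (SE 0.85, edgeR adjusted p = 0.011). In sdCAMs they were 9.92 in Ccr2-/- mice (SE 1.08, edgeR adjusted p = 2.17e-05) and 11.69 in reporter mice (SE 0.68, edgeR adjusted p = 4.62e-05). For WT sdCAMs the log2 change was 10.38 and was not called (SE 3.69, edgeR adjusted p = 0.109), with untreated libraries that differed 63.02-fold among themselves. Lars2, a mitochondrial leucyl-tRNA synthetase gene, took 1.22, 2.09 and 6.21% of counts in these untreated libraries (mice 9, 14 and 15) against 0.0581 to 0.191% after CTL and LPS, and mouse 15, the highest in Saa3, held microglial markers at 34.9% of its MG library. Their part in the result was not tested. The change was called with the libraries under 3000000 counts left out (11.00, edgeR adjusted p = 0.00139), where mouse 9 alone stands for the untreated group and is assumed to vary like the other groups. It was also called within the marked libraries (11.82, edgeR adjusted p = 0.000726) and in a fit of the compared groups alone (10.36, edgeR adjusted p = 0.0233). The reporter MG call was lost without LPS mouse 1 or 5 or PBS mouse 174 or 177 (edgeR adjusted p from 0.0517 to 0.0646).

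Lcn2, lipocalin-2, binds bacterial siderophores and so withholds iron from microbes. WT sdCAMs held 3022, 6217 and 4439.7 CPM after CTL and LPS (4559.9 ± 1601, SD, n = 3) and 9.51, 0 and 18.1 CPM without treatment. In WT MG the LPS libraries read 201, 8.34 and 25.4 CPM, while the untreated ones held at most 1 count each. MG mouse 1 thus stood 24.1-fold above mouse 4, as it did for Saa3 (17.3-fold).

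Ccr2-/- sdCAMs were tight, with 6107, 6191 and 6685 CPM of Lcn2 after LPS (6328 ± 313, SD, n = 3) against 24.0, 0 and 13.9 CPM in untreated mice. Their MG had 99.2, 53.5 and 108 CPM after LPS and at most 6 counts each without treatment. Reporter sdCAMs read 4137, 8835 and 5168 CPM per mouse after LPS (6047 ± 2469.6, SD, n = 3), and reporter MG 255, 271 and 211 CPM, with 0 counts in all 3 MG libraries after PBS. All 6 contrasts were called. The log2 rise in WT sdCAMs was 10.52 (SE 1.80, edgeR adjusted p = 0.00997), that in Ccr2-/- sdCAMs 9.11 (SE 0.93, edgeR adjusted p = 1.21e-05), that in reporter sdCAMs 14.06 (SE 0.69, edgeR adjusted p = 3.17e-05) and that in Ccr2-/- MG 7.71 (SE 0.89, edgeR adjusted p = 1.67e-05). Against a floor of 3 counts per library, which covers counting error alone, Lcn2 in WT MG was higher by at least 210-fold, or 45.4-fold without mouse 1 (edgeR adjusted p = 0.000723 with all 3 mice), and in reporter MG by at least 809-fold (edgeR adjusted p = 0.00609). The latter call was lost without LPS mouse 1 or 5 (edgeR adjusted p = 0.0622 and 0.0517).

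Hp, haptoglobin, captures free haemoglobin and is a classical liver acute phase protein. No untreated WT library of either cell type held a count of it. WT sdCAMs after CTL and LPS had 23.3, 15.9 and 22.3 CPM (20.5 ± 3.99, SD, n = 3), and WT MG 9.83, 0.725 and 1.05 CPM. Ccr2-/- sdCAMs held more, with 135, 326 and 174 CPM (212 ± 101, SD, n = 3), after 0 counts in untreated mice. This difference between genotypes was not tested. Ccr2-/- MG held 4.43 to 6.53 CPM. Reporter sdCAMs read 176, 116 and 211 CPM per mouse after LPS and reporter MG 6.66 to 10.8 CPM.

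Hp was called in all 3 sdCAM populations and in Ccr2-/- MG. Against the floor, Hp in WT sdCAMs was higher by at least 16.4-fold (edgeR adjusted p = 0.00135), in Ccr2-/- sdCAMs by at least 594-fold (edgeR adjusted p = 1.24e-06) and in Ccr2-/- MG by at least 17.3-fold (edgeR adjusted p = 0.000732). Its log2 fold change in reporter sdCAMs was 5.20 (SE 1.57, edgeR adjusted p = 0.0362). There 1 library stood apart from the rest after PBS, since tdT- cells of PBS mouse 174 held 303 counts (31.0 CPM), while the other 5 reporter sdCAM libraries after PBS held 0. Without mouse 174 the log2 change was 14.16, and without LPS mouse 1 or 7 or PBS mouse 175 or 177 the call was lost (edgeR adjusted p from 0.0635 to 0.0896). In WT MG, where Hp was too low to be tested, it was at least 10.4-fold higher, but at least 2.39-fold without mouse 1. In reporter MG it was at least 26.8-fold higher without being called (edgeR adjusted p = 0.0828), though it was called without PBS mouse 175 (edgeR adjusted p = 0.0461).

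Wfdc17, a small secreted protein with a WAP domain that was described in activated macrophages, was already present in resting sdCAMs. Untreated WT sdCAMs read 3841, 2149.6 and 136 CPM in mice 9, 14 and 15, and after CTL and LPS 9135, 4246 and 5874 CPM (6419 ± 2489.7, SD, n = 3). Ccr2-/- sdCAMs rose from 327, 285 and 317 CPM to 999, 1485 and 1172 CPM. Reporter sdCAMs rose from 560, 381 and 345 CPM to 8249.8, 4136 and 9301 CPM per mouse. In MG after PBS or CTL and LPS Wfdc17 did not exceed 23.5 CPM in WT and Ccr2-/- mice, with 3.14 to 15.98 CPM in WT and 12.4 to 23.5 CPM in Ccr2-/- mice after LPS and 0 to 1.21 CPM in untreated mice of both genotypes.

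The log2 change of 2.13 in Ccr2-/- sdCAMs was called (SE 0.17, edgeR adjusted p = 1.43e-06), as was that of 4.30 in reporter sdCAMs (SE 0.42, edgeR adjusted p = 0.000325), while the 2.96 of WT sdCAMs was not (SE 1.67, edgeR adjusted p = 0.302). The WT change reached edgeR adjusted p = 0.0389 with the mark as a covariate and 0.0466 in the marked libraries. Microglial Wfdc17 rose by 4.38 in WT (SE 0.89, edgeR adjusted p = 0.00305) and by 4.34 in Ccr2-/- mice (SE 0.53, edgeR adjusted p = 2.57e-05). Reporter MG gave 3.14 and were not called (SE 2.00, edgeR adjusted p = 0.584), with 0, 0 and 35 counts after PBS.

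Slpi, secretory leukocyte protease inhibitor, shares the WAP fold and inhibits neutrophil elastase. It was near the floor throughout: the highest library held 127 counts (tdT- sdCAMs of LPS mouse 5), and outside the LPS groups only 1 library had any, with 2 counts. WT sdCAMs after CTL and LPS held 37, 12 and 0 counts, Ccr2-/- sdCAMs 0, 6 and 0, Ccr2-/- MG 32, 0 and 25, and reporter sdCAMs 16, 127 and 7 per mouse. Among the 6 LPS contrasts of a cell type the increase in reporter sdCAMs, at least 25.6-fold (10.8-fold without mouse 5), was the one called (edgeR adjusted p = 0.0111). In Ccr2-/- MG Slpi was at least 5.52-fold higher without being called (edgeR adjusted p = 0.0629), and it was at least 8.28-fold higher and called without mouse V2m (edgeR adjusted p = 0.0352).

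S100a8 and S100a9 are calcium-binding proteins that pair as calprotectin, which sequesters zinc and manganese, and both are abundant in neutrophils. S100a8 read 1118, 129 and 315 CPM in WT sdCAMs after CTL and LPS (520 ± 525, SD, n = 3) and 22.6, 34.1 and 0 CPM without treatment. In Ccr2-/- sdCAMs it rose from 2.46, 1.48 and 0.973 CPM to 58.3, 67.3 and 89.5 CPM (71.7 ± 16.1, SD, n = 3), and in reporter sdCAMs to 1017, 169 and 413 CPM per mouse (533 ± 436, SD, n = 3). MG stayed at 0.846 to 12.1 CPM after LPS in the WT, Ccr2-/- and reporter groups just named. The groups with and without LPS did not overlap in these sdCAMs, which in this direction held for 5.79% of all genes tested in WT, 19.9% in Ccr2-/- and 19.1% in reporter mice.

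S100a8 rose on the log2 scale by 5.58 in Ccr2-/- sdCAMs (SE 0.59, edgeR adjusted p = 1.74e-05) and by 11.72 in reporter sdCAMs (SE 1.25, edgeR adjusted p = 0.000414), and it rose in WT MG (at least 13.8-fold, or 4.44-fold without mouse 1, edgeR adjusted p = 0.00621 with all 3). WT sdCAMs gave 6.18 and were not called (SE 1.94, edgeR adjusted p = 0.0797), but were called without the libraries under 3000000 counts (6.27, edgeR adjusted p = 2.28e-07), with mouse 9 again the only untreated library. The 3.79 of reporter MG was not called either (SE 1.86, edgeR adjusted p = 0.436). In Ccr2-/- MG the fitted change was -0.77 (SE 1.26, edgeR adjusted p = 0.683), and untreated mouse 1m held 330 counts there while the other 2 untreated libraries held 0. Without that library it was 9.11 (edgeR adjusted p = 0.000562). The same MG library held 176 counts of S100a9, and summed neutrophil markers of 34.1 CPM against at most 0.241 CPM in the other 2, and the part of other cells in its S100 counts was not tested.

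S100a9 did not follow its partner. The 18 sdCAM libraries after LPS held 30929 counts of S100a8 and 192 of S100a9, which is 0.621% of the former, and S100a8 was the higher in all 18. S100a9 was at 0 in 8 of them and never exceeded 37 counts. The 15 MG libraries after LPS held 844 counts of S100a8 and 6 of S100a9. In contrast, the 12 sdCAM libraries without LPS held 206 and 179 counts, and nearly all S100a9 came from WT mouse 9 (173 counts). S100a9 was too low to be tested in any of the LPS contrasts within a cell type.

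**Figure D2:**
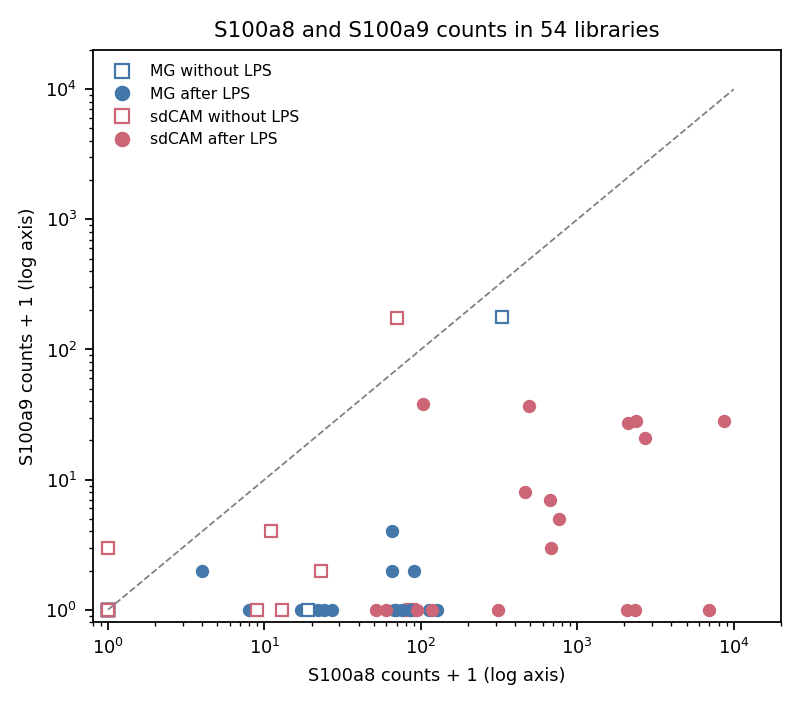
Counts of S100a8 plus 1 (x axis) against counts of S100a9 plus 1 (y axis) in each library, both axes logarithmic, with a dashed line where the 2 are equal. All 18 sdCAM libraries after LPS lie below the line, at no more than 37 counts of S100a9.

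Summed neutrophil markers had a higher median after LPS than after PBS in sdCAMs of every genotype. Over 13 markers they reached 1.68 to 18.6 CPM in WT sdCAMs after CTL and LPS, with 8 of 13 at 0 in all 3 libraries, and 16.99 to 30.3 CPM in Ccr2-/- sdCAMs, with 7 of 13 at 0. In reporter mice they came to 14.3 to 28.6 CPM in tdT+ and 13.03 to 80.2 CPM in tdT- cells, with 10 of 13 at 0 in each. MG after CTL and LPS held 3.14 to 19.1 CPM in WT and 6.54 to 11.7 CPM in Ccr2-/- mice. They reached 13.3 to 45.7 CPM in WT and 30.01 to 104 CPM in Ccr2-/- sdCAMs after BLZ945 and LPS. Groups given PBS other than Ccr2-/- MG did not exceed 4.61 CPM. Few of the 13 were high enough to be tested for LPS: 2 of 2 were called higher in WT MG, 1 of 2 in WT sdCAMs, 2 of 2 in Ccr2-/- MG, and 1 of 1 in Ccr2-/- and in reporter sdCAMs. Summed monocyte markers (7 genes) went from 2.59 to 9.97 CPM without treatment to 107 to 192 CPM after CTL and LPS in Ccr2-/- sdCAMs, with 4 of 6 tested called higher, and 3 of 6 were called higher in tdT+ cells. Their sum was 9.61 to 59.1 CPM against 34.2 to 47.6 CPM in WT sdCAMs and 47.7 to 185 CPM against 236 to 293 CPM in tdT+ cells. Summed choroid plexus epithelium markers (5 genes) reached 6.98 to 651 CPM in WT sdCAMs after CTL and LPS against 1.60 to 124 CPM in untreated ones, with 0 of 1 tested called, and did not exceed 2.16 CPM in Ccr2-/- sdCAMs after CTL and LPS. The part of these cells in the members' changes was not tested.

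Counted over the whole set, LPS raised 4 of 7 members in WT MG, where 9.08% of all genes tested were called higher, and 2 of 7 in WT sdCAMs (3.70% of all genes), Lcn2 and Hp. In Ccr2-/- mice 4 members rose in MG (10.5% of all genes) and 5 in sdCAMs (10.9% of all genes). In reporter mice 2 rose in MG (0.662% of all genes) and 6 in sdCAMs per mouse (14.5% of all genes). No member was called lower in these 6 contrasts. In WT sdCAMs 5 members (all but Slpi and S100a9) were higher in every LPS library than in every untreated one, against 5.79% of all genes tested. Bulk RNA cannot separate fewer cells of a type from less RNA per cell, and mouse-to-mouse spread differed between these fits, with a common biological coefficient of variation of 0.257 in WT MG, 0.453 in Ccr2-/- sdCAMs, 0.7 in WT sdCAMs and 0.81 in reporter MG.

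**Figure D3:**
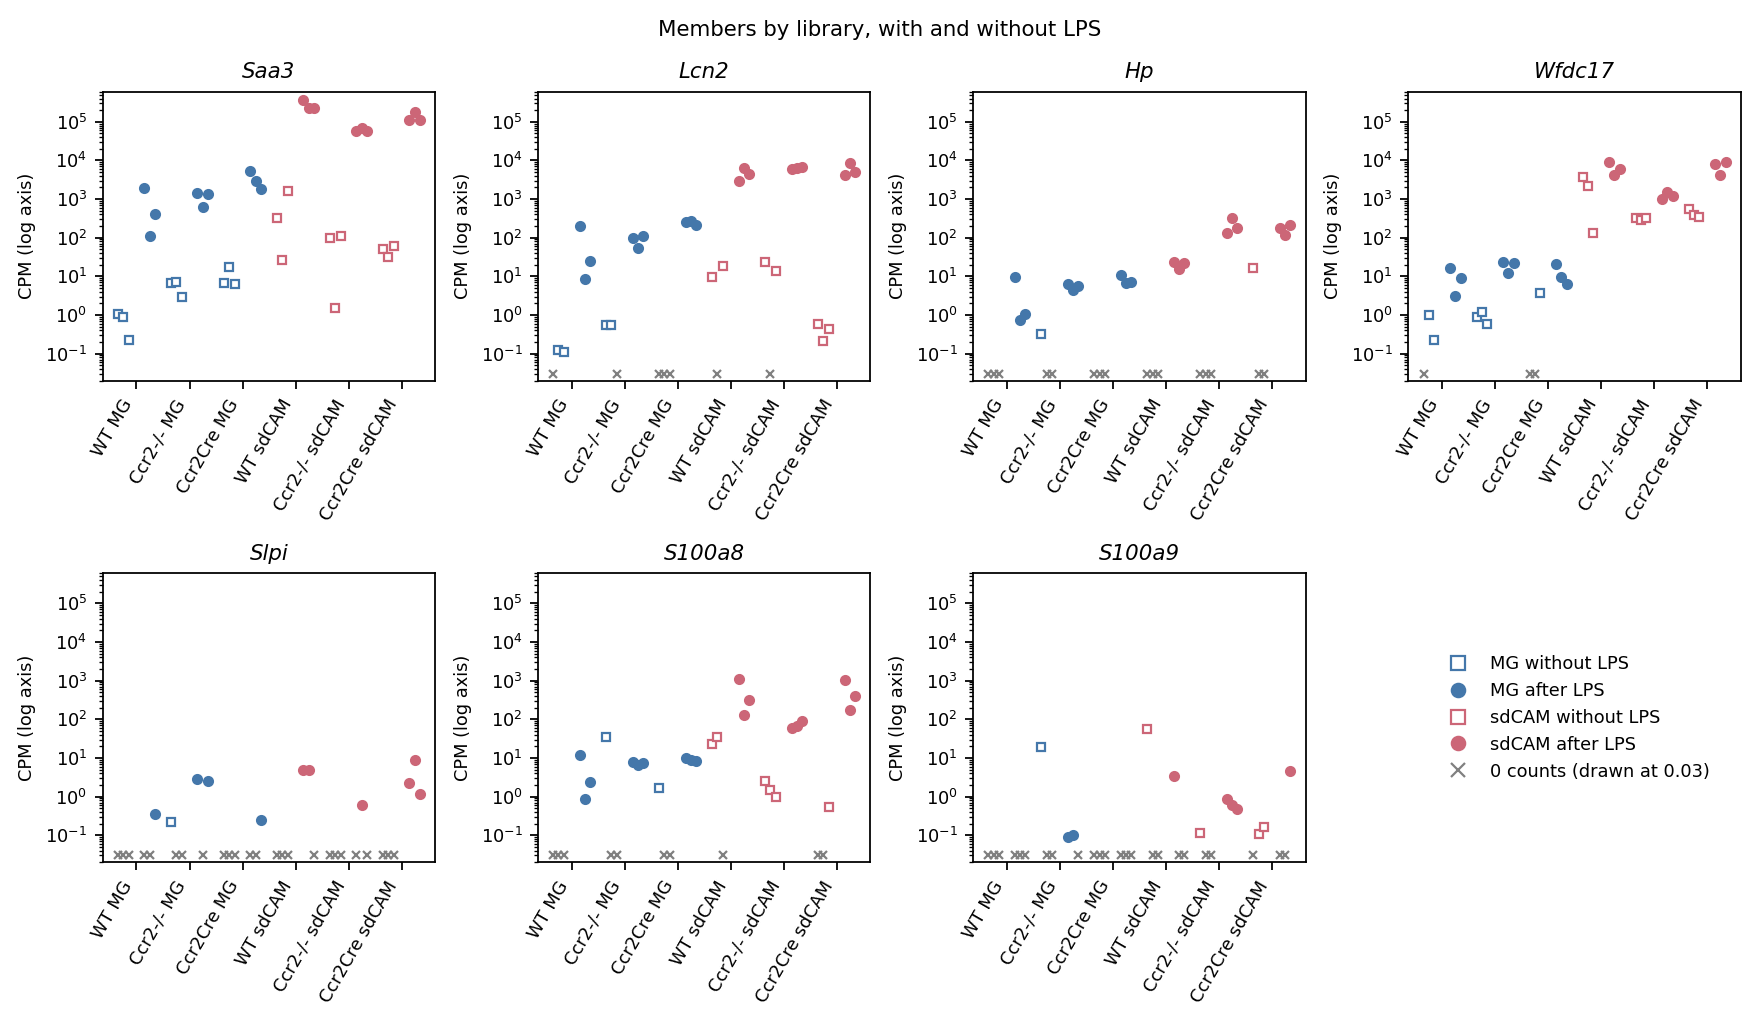
CPM of each member (1 panel each, logarithmic y axis) in MG and sdCAMs of WT, Ccr2-/- and reporter (Ccr2Cre) mice, with open squares for libraries without LPS and filled circles after LPS (CTL and LPS in WT and Ccr2-/- mice, BLZ945 and LPS in reporter mice, whose sdCAM values are sums per mouse). Crosses at the foot of a panel stand for 0 counts, and after LPS the sdCAMs hold more Saa3, Lcn2 and Wfdc17 than the MG of the same mouse in every case.

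**Figure D4:**
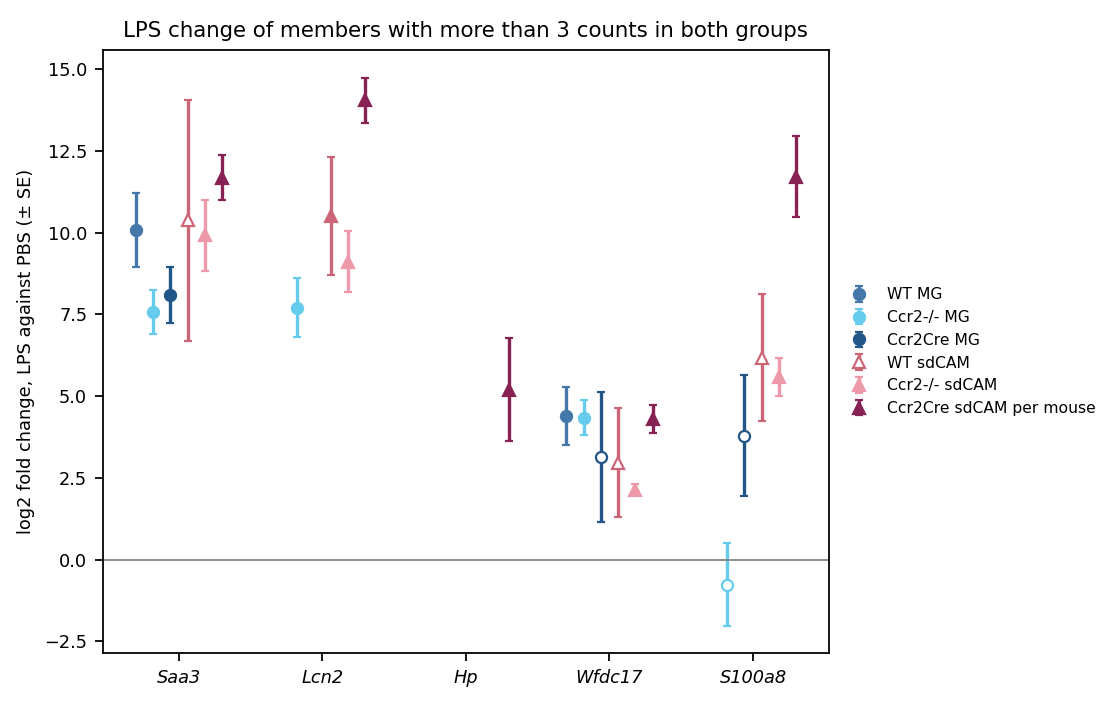
Fitted log2 fold change after LPS with its standard error (y axis) for members with more than 3 counts in at least 1 library of both groups, by cell type and genotype (Ccr2Cre for reporter mice). Filled symbols were called and open symbols were not, among them Saa3 in WT sdCAMs at 10.38.

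The levels after LPS were then compared between the cell types of 1 mouse. Within each of the 15 mice given LPS, Saa3, Lcn2, Hp, Wfdc17 and S100a8 were higher in sdCAMs than in MG in 15 of 15. The ratio of sdCAM to MG CPM ran from 11.5 to 2061 for Saa3 (median 58.3), from 15.1 to 746 for Lcn2 (median 61.6) and from 42.6 to 1497 for Wfdc17 (median 236). For Hp and S100a8, with 14 ratios each, the medians were 26.1 and 18.2. Slpi was higher in sdCAMs in 11 and S100a9 in 9 of 15 mice. In the 9 mice given PBS, only Wfdc17 was higher in sdCAMs in all 9, Saa3 in 8, Lcn2 in 7, S100a8 in 5 and Hp in 1.

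After CTL and LPS, WT sdCAMs exceeded WT MG in 6 of 7 members, with 19.1% of all genes called higher. The largest log2 difference was that of Wfdc17 (11.24, SE 1.88, edgeR adjusted p = 0.000443), followed by Saa3 (10.18, SE 1.94, edgeR adjusted p = 0.00102), S100a8 (8.53, SE 1.88, edgeR adjusted p = 0.00285), Lcn2 (7.63, SE 1.32, edgeR adjusted p = 0.000569) and Hp (4.17, SE 0.89, edgeR adjusted p = 0.00285). Slpi exceeded MG by at least 9.48-fold, or 14.2-fold without sdCAM library 6 (edgeR adjusted p = 0.0346), but with mouse as a block its adjusted p in edgeR was 0.191 and that of S100a9 0.0451. The Slpi call was also lost without sdCAM library 1 or 4 or any 1 of the 3 MG libraries (edgeR adjusted p from 0.0531 to 0.116), and S100a9 was called without sdCAM library 6 (edgeR adjusted p = 0.0446).

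Ccr2-/- sdCAMs exceeded MG in 5 members, with 9.29% of all genes called higher. Wfdc17 differed by 6.24 (SE 0.37, edgeR adjusted p = 5.80e-10), Hp by 5.52 (SE 0.45, edgeR adjusted p = 7.67e-08), Lcn2 by 6.45 (SE 0.87, edgeR adjusted p = 1.41e-05), Saa3 by 6.02 (SE 0.91, edgeR adjusted p = 4.76e-05) and S100a8 by 3.57 (SE 1.14, edgeR adjusted p = 0.0252), a call lost without sdCAM library V4f or any 1 of the 3 MG libraries (edgeR adjusted p from 0.0556 to 0.0871). In reporter mice 4 members were higher in sdCAMs, with 5.14% of all genes called higher: Wfdc17 (9.67, SE 1.36), S100a8 (6.46, SE 1.26), Saa3 (5.79, SE 0.72) and Lcn2 (5.14, SE 0.48), at edgeR adjusted p between 0.000382 and 0.0093. Hp differed by 4.86 there and was not called (SE 1.68, edgeR adjusted p = 0.117). With mouse as a block Hp was called (edgeR adjusted p = 0.00961) and S100a8 was not (edgeR adjusted p = 0.0608), and neither was S100a8 without MG library 5 or 7 or sdCAM mouse 1 (edgeR adjusted p from 0.0556 to 0.0614).

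The difference between the 2 cell types in the size of the LPS change was tested as an interaction. In WT mice edgeR called 0 members (1.32% of all genes), 0 had an unadjusted p under 0.05 (17.8% of all genes), and DESeq2 called 0 as well. Saa3 gave 0.21 (SE 1.97, edgeR adjusted p = 0.994). In Ccr2-/- mice 3 members were called (6.88% of all genes). The Wfdc17 change was smaller in sdCAMs by 2.17 (log2 difference -2.17, SE 0.55, edgeR adjusted p = 0.0176), that of S100a8 was larger (6.39, SE 1.69, edgeR adjusted p = 0.023), and that of S100a9, for which no size is given because its counts lay at the floor, had an edgeR adjusted p of 0.0396. With mouse as a block 1 of the 3 remained called, and the adjusted p in edgeR was 0.056 for Wfdc17 and 0.107 for S100a8. Without the MG library of untreated mouse 1m none of them was called, and the S100a8 difference turned to -3.37. The Wfdc17 call was also lost without MG mouse 5f (edgeR adjusted p = 0.0629), and that of S100a8 without sdCAM mouse 3m or 5f or MG mouse V1m, V2m or V4f (edgeR adjusted p from 0.0539 to 0.0578).

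The LPS change of Saa3 in Ccr2-/- mice was 2.38 larger in sdCAMs than in MG on the log2 scale, which was not called (SE 1.12, edgeR adjusted p = 0.234). In reporter mice edgeR called 0 members (1.04% of all genes), but 2 had an unadjusted p under 0.05 (13.5% of all genes). These were Saa3 with 3.53 (SE 0.86, edgeR adjusted p = 0.073) and S100a8 with 8.00 (SE 1.82, edgeR adjusted p = 0.0557). DESeq2 called 1 of them, Saa3 (DESeq2 adjusted p = 0.000333). With edgeR Saa3 was called without MG library 1 after LPS (edgeR adjusted p = 0.0442), and S100a8 without MG library 175 or 177 after PBS or sdCAM mouse 5 (edgeR adjusted p from 0.0132 to 0.038).

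Earlier BLZ945 treatment was compared with CTL in mice given LPS. No WT or Ccr2-/- mice received BLZ945 and PBS, so levels after LPS were compared here and not the size of the LPS response. In WT sdCAMs Saa3 took 2.39, 1.79 and 21.0% of counts in BLZ945 mice 8, 11 and 12 (8.40% ± 10.9, SD, n = 3), all below the 3 CTL libraries, which only 1.14% of all genes showed. The log2 difference of -1.88 was not called (SE 2.55, edgeR adjusted p = 0.849). Wfdc17 ran in parallel, with 723, 555 and 8146 CPM, as did S100a8 with 41.9, 29.9 and 358 CPM, and for both genes mouse 12 lay within the CTL range and mice 8 and 11 below it. Lcn2 did not follow this pattern (2172, 3199 and 2755 CPM), and Hp was higher in mice 8 and 11 (85.1 and 100.2 CPM) than in mouse 12 (29.5 CPM), all 3 of which lay above the CTL libraries, as they did for 1684 of 10504 genes tested.

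Mice 8 and 11 also stood apart in other measures. They had 2433287 and 1705930 counts, no mark in the labels, 4.14 and 5.07% of counts in Lars2, against 0.187% in mouse 12 and 0.0581 to 0.191% in the CTL libraries, and 1.33 and 1.08% in ribosomal protein and mitochondrially encoded genes, against 4.93% in mouse 12 and 3.53 to 3.98% in CTL. Summed microglial markers were at 23.1 and 24.8% of their own MG libraries, against 5.04% in mouse 12. The part of these differences in the levels of Saa3, Wfdc17 and S100a8 was not tested. Without mouse 12, Wfdc17 (-5.10, edgeR adjusted p = 0.0394) and S100a8 (-5.68, edgeR adjusted p = 0.0429) were called lower.

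No member was called for BLZ945 in any of the 4 comparisons by edgeR's quasi-likelihood test, where the share of all genes called was 0.0763% in WT MG, 0 in WT sdCAMs, 0.0173% in Ccr2-/- MG and 0 in Ccr2-/- sdCAMs. At an unadjusted p under 0.05 there were 0, 0, 2 and 1 members, against 6.58, 7.22, 6.65 and 8.36% of all genes. DESeq2 called 0 members in each. In Ccr2-/- sdCAMs after BLZ945 Saa3 took 7.05, 6.23 and 7.55% of counts (6.94% ± 0.668, SD, n = 3), a log2 difference of 0.18 from CTL (SE 0.74). Hp was higher by 0.85 (SE 0.37, unadjusted p = 0.0436, edgeR adjusted p = 0.582), with 440, 494 and 207 CPM, and Lcn2 held 12601, 7316 and 8017 CPM (0.58, SE 0.64). In Ccr2-/- MG Saa3 read 6109.5, 1848 and 1236 CPM (1.50, SE 0.50, edgeR adjusted p = 0.644) and Lcn2 521, 175 and 68.1 CPM (1.63, SE 0.54, edgeR adjusted p = 0.644). Mouse B2m was the highest of the 3 for both genes. WT MG after BLZ945 held 529, 793 and 521 CPM of Saa3 and 28.0, 55.9 and 38.5 CPM of Lcn2, within the range of the CTL mice.

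Within reporter sdCAMs, Saa3, Wfdc17 and S100a8 were lower in tdT+ than in tdT- cells of every mouse given LPS, while Lcn2 and Hp overlapped. After LPS, Saa3 took 14.5, 28.3 and 17.8% of counts in tdT- cells of mice 1, 5 and 7 (20.2% ± 7.24, SD, n = 3) and 2.14, 0.680 and 2.74% in tdT+ cells (1.85% ± 1.06, SD, n = 3). Wfdc17 read 11583, 6676 and 17037 CPM in tdT- and 342, 69.9 and 283 CPM in tdT+ cells. S100a8 held 1422, 268 and 738 CPM in tdT- and 56.3, 10.8 and 34.1 CPM in tdT+ cells. These 3 genes did not overlap between the populations, which held in this direction for 4.71% of all genes tested. After PBS no such gap was seen, with Saa3 at 17.5 to 58.9 CPM in tdT- and 42.9 to 66.7 CPM in tdT+ cells and Wfdc17 at 373 to 677 and 317 to 434 CPM.

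Lcn2 read 3788, 13681 and 5594 CPM in tdT- and 4965, 1079 and 4671 CPM in tdT+ cells, and Hp 119, 149 and 152 CPM in tdT- and 309.7, 61.8 and 279 CPM in tdT+ cells. In mice 1 and 7 both populations held Lcn2 at a similar level, with tdT- to tdT+ ratios of 0.763 and 1.20, while in mouse 5 the ratio was 12.7. The tdT+ library of mouse 5 held microglial markers at 82.7% of its MG library, and their part in its ratios was not tested. The corresponding Hp ratios were 0.385, 0.544 and 2.41. For Wfdc17 the ratio was 33.9, 60.1 and 95.6 in mice 1, 7 and 5, and for S100a8 25.3, 21.6 and 24.9.

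**Figure D5:**
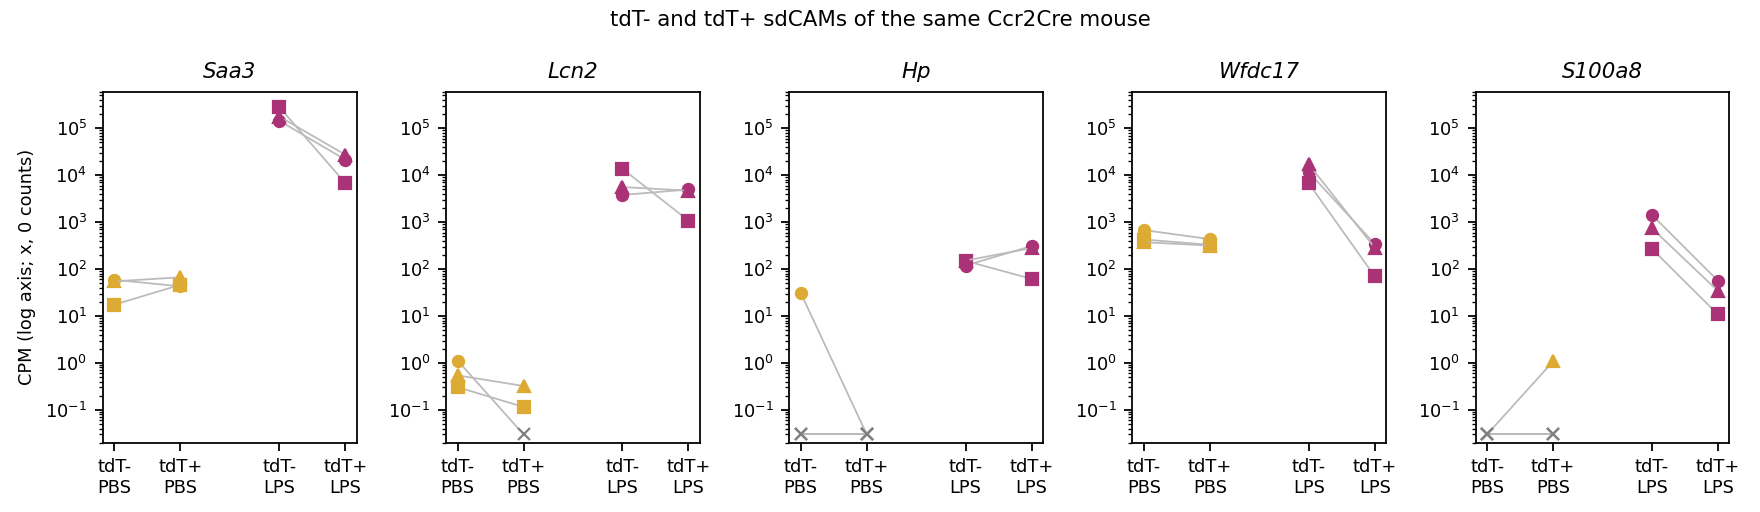
CPM (logarithmic y axis) of 5 members in tdT- and tdT+ sdCAMs of the same reporter mouse, joined by a line, after PBS and after LPS. After LPS the lines of Saa3, Wfdc17 and S100a8 fall from tdT- to tdT+ in all 3 mice, that of Hp rises in mice 1 and 7 and falls in mouse 5, and that of Lcn2 rises in mouse 1 and falls in mice 5 and 7. A cross marks 0 counts. The tdT+ library of mouse 5 held microglial markers at 82.7% of its MG library.

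In the fit, 4 members were lower in tdT+ than in tdT- sdCAMs after LPS, with 6.90% of all genes called lower. S100a8 differed by -5.53 (SE 0.88, edgeR adjusted p = 0.00107), and Lcn2 by -2.26 (SE 0.68, edgeR adjusted p = 0.0426), a call that was lost with mouse as a block (edgeR adjusted p = 0.149) and without any 1 of the tdT+ libraries or tdT- library 5 (edgeR adjusted p from 0.0657 to 0.2). Saa3 (-4.54) and Wfdc17 (-6.61) were also called. Hp differed by -0.41 (SE 1.24, edgeR adjusted p = 0.886), and with library totals in place of TMM factors, which moves the median of all genes from 0.11 to 1.14, by 0.63. With the 2 columns of conflicting index numbers exchanged, edgeR called 0 of 7 members and 1 had an unadjusted p under 0.05 (DESeq2 was not run on the exchanged columns). Saa3 then came to 5.77% ± 7.58 in tdT+ and 16.3% ± 12.9 in tdT- cells (SD, n = 3). The calls between the populations depend on the assignment of these columns by name.

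The tdT+ libraries of mice 1 and 7 had 7.19 and 7.24% of their counts in Lars2, against 0.0434 to 1.01% in tdT- cells, and that of mouse 5 had 1.45%. Ribosomal protein and mitochondrially encoded genes took 4.62, 2.53 and 3.98% of counts in tdT- cells of LPS mice 1, 5 and 7. In tdT+ cells of these mice they took 1.28, 1.20 and 1.09%. After PBS the shares were 0.861 to 1.31% in tdT- and 1.18 to 1.37% in tdT+ cells. The part of these library differences in the lower Saa3, Wfdc17 and S100a8 was not tested. Left without the libraries of fewer than 3000000 counts, which keeps only mouse 5 in tdT+ cells and assumes that it varies like the other groups, 4 members were called and Saa3 differed by -6.08, Wfdc17 by -8.43 and S100a8 by -7.24. These values rest on the library whose microglial markers stood at 82.7% of its MG library and whose summed sdCAM markers were 2502 CPM, against 11298 and 12298 CPM in the other 2.

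Each population on its own responded to LPS in most members. In tdT- cells 6 of 7 rose (14.5% of all genes), with S100a8 at least 2587-fold higher, or 1608-fold without mouse 1 (edgeR adjusted p = 8.29e-06 with all 3), Lcn2 by 14.43 (SE 1.13, edgeR adjusted p = 1.60e-06) and Wfdc17 by 5.33 (SE 0.58, edgeR adjusted p = 1.24e-05). In tdT+ cells 4 rose (7.54% of all genes), with S100a8 by 6.20 (SE 1.03, edgeR adjusted p = 0.00157), Lcn2 at least 10693-fold and Hp at least 650-fold higher (edgeR adjusted p = 0.00388). Wfdc17 in tdT+ cells gave -0.86 (SE 0.49, edgeR adjusted p = 0.271), which became 4.14 with the columns exchanged and -2.72 without the libraries under 3000000 counts (edgeR adjusted p = 0.0114), which again leaves mouse 5 alone. After the exchange 3 members instead of 6 were called in tdT- cells. The call of Slpi in tdT- cells was lost without LPS mouse 5 or any 1 of the PBS mice (edgeR adjusted p from 0.0741 to 0.107), and that of Hp without PBS mouse 177 (edgeR adjusted p = 0.0544). DESeq2 called neither in tdT- cells (DESeq2 adjusted p = 0.108 for Hp and 0.058 for Slpi).

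Compared per length of exon, Saa3 stood at 104698 ± 28164 CPM per kb in WT sdCAMs after CTL and LPS (SD, n = 3), above Wfdc17 (12043), Lcn2 (1738), S100a8 (749.9) and Hp (12.8 CPM per kb). The length joined all annotated exons of a gene over its transcripts, with 2606 bases for Saa3, 2623 for Lcn2 and 533 for Wfdc17. The values per kb depend on that annotation. All 7 members together made up 28.4% ± 7.49 of counts in these libraries, 6.96% in Ccr2-/- sdCAMs and 14.5% in reporter sdCAMs per mouse. Saa3 was the most abundant gene in the 3 WT CTL, the 6 Ccr2-/- and the 3 tdT- libraries after LPS and in WT BLZ945 mouse 12, which is 13 of 18 sdCAM libraries given LPS, and Lars2 was so in the other 5. In order of the mean Saa3 level, WT CTL, tdT-, WT BLZ945 and both Ccr2-/- sdCAM groups came first, and neighbours among them overlapped. The tdT+ group followed (6798.6 to 27361.5 CPM). It lay apart from all of them but WT BLZ945, whose lowest library held 17882 CPM and with which it overlapped. The MG groups after LPS came next, with untreated WT sdCAMs (675 ± 872 CPM) among them. All other groups given PBS came last.

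The spread between mice changed from group to group. In Ccr2-/- sdCAMs without treatment the highest Saa3 library was 74.5-fold above the lowest, more than any of 8267 genes (median 1.42-fold), while after CTL and LPS it was 1.14-fold, less than in 86.0% of genes. Lcn2 in the same LPS libraries varied 1.10-fold. In WT MG after LPS the spreads of Lcn2 (24.1-fold) and Saa3 (17.3-fold) were exceeded by 0.126 and 0.161% of genes. In WT sdCAMs after CTL and LPS S100a8 varied 8.66-fold, a spread that 2.43% of genes exceeded, and Saa3 1.56-fold.

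Across the 18 group means, the genes most like each member were ranked by Pearson's r of log2(CPM + 1) over 8784 genes, as a description without a test, since the groups share mice and scaling. Saa3 was most like the chemokine gene Ccl5 (r = 0.99), then Lcn2 and Cxcl2 (both 0.97). Lcn2 was most like Sod2 (0.98), Cxcl13 (0.97) and Cxcl2 (0.97), and Hp like Sphk1 and Clec4e (both 0.97) and Csf3 (0.96). Wfdc17 had other neighbours, Ifi27l2a (0.98), Gas7 (0.97) and Ifitm2 (0.96). S100a8 was most like the metallothionein genes Mt2 (0.97) and Mt1 (0.96) and Gm32089 (0.96), whereas its r with S100a9 was 0.52. S100a9 reached no more than 0.76 (Anp32a) and Slpi no more than 0.88 (Gm32089).

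Other acute phase genes mostly rose as well. Of 26 listed, 9 of 9 tested were called higher in WT MG, 8 of 10 in WT sdCAMs, 5 of 5 in Ccr2-/- MG, 14 of 16 in Ccr2-/- sdCAMs, 2 of 5 in reporter MG and 10 of 13 in reporter sdCAMs, and none lower. Their median log2 fold change was 6.50 in WT MG and 6.86 in Ccr2-/- sdCAMs, where that of all genes was 0.02 and -0.05. Of all genes tested, 9.08% were called higher and 7.65% lower in WT MG, and 3.70 and 2.62% in WT sdCAMs. The shares higher and lower were 10.5 and 8.89% in Ccr2-/- MG and 10.9 and 10.6% in Ccr2-/- sdCAMs. In reporter mice they were 0.662 and 0.423% in MG and 14.5 and 10.6% in sdCAMs. These shares also apply to the lists that follow. Il1rn, the interleukin-1 receptor antagonist, rose from 0.311 to 294 CPM in WT MG (log2 fold change 9.84, edgeR adjusted p = 0.000383) and from 5.87 to 2783 CPM in Ccr2-/- sdCAMs (9.03, edgeR adjusted p = 3.89e-10). Cp, ceruloplasmin, rose from 594 to 3845 CPM in Ccr2-/- sdCAMs (2.84, edgeR adjusted p = 1.72e-08), and Steap4, a metalloreductase, from 1.34 to 793 CPM (9.34, edgeR adjusted p = 1.08e-08). Saa1 and Saa2, paralogs with which Saa3 may share reads, reached 255 and 81.3 CPM in WT sdCAMs after LPS. How shared reads were counted was not examined, so the size of any error in the Saa3 values is not known.

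After LPS, calls among other antimicrobial and granule genes were confined to Ccr2-/- and reporter sdCAMs. There 21.5 and 25.1% of all genes tested were called in either direction. Of 19 listed, 0 of 2 tested were called in WT MG, 0 of 5 in WT sdCAMs, 0 of 4 in Ccr2-/- MG, 0 of 3 in reporter MG, 2 higher and 1 lower of 5 in Ccr2-/- sdCAMs and 1 higher and 2 lower of 6 in reporter sdCAMs. Lyz2, lysozyme, fell from 8175.5 to 3095 CPM in Ccr2-/- sdCAMs (-1.25, edgeR adjusted p = 0.00037) and from 13331 to 1539 CPM in reporter sdCAMs (-2.88, edgeR adjusted p = 0.000839). Slc11a1, a phagosomal metal transporter, rose from 284 to 919 CPM in Ccr2-/- sdCAMs (1.84, edgeR adjusted p = 7.39e-07).

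Among 11 other S100 genes, 1 of 4 tested rose in WT MG, 1 of 6 in WT sdCAMs, 0 of 4 in Ccr2-/- MG, 0 of 4 in reporter MG, 2 of 7 in Ccr2-/- sdCAMs, where 1 fell, and 3 of 9 in reporter sdCAMs. Within reporter sdCAMs 4 of 9 rose in tdT- (14.5% of all genes) and 4 of 9 fell in tdT+ cells (5.82% of all genes) after LPS. S100a13 rose from 59.5 to 150.0 CPM in tdT- cells (2.10, edgeR adjusted p = 0.000623) and fell from 66.9 to 14.4 CPM in tdT+ cells (-2.46, edgeR adjusted p = 0.000804). S100a10 rose from 19.1 to 463 CPM in WT sdCAMs (6.04, edgeR adjusted p = 0.0492).

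Receptors of the member proteins, listed with relatives such as Fpr1, were mixed. Of 12 listed and 9 or 10 tested, 3 rose and 1 fell in WT MG, 2 rose in WT sdCAMs, 4 rose and 1 fell in Ccr2-/- MG, 3 rose and 2 fell in Ccr2-/- sdCAMs, 1 rose in reporter MG, and 2 rose and 3 fell in reporter sdCAMs. Fpr1, a formyl peptide receptor, rose from 146 to 2978 CPM in Ccr2-/- sdCAMs (4.49, edgeR adjusted p = 1.67e-07) and from 51.1 to 339.9 CPM in WT sdCAMs (4.16, edgeR adjusted p = 0.00587). Tlr2 rose from 269 to 1821 CPM in WT MG (2.67, edgeR adjusted p = 0.000535) and from 416 to 981 CPM in Ccr2-/- sdCAMs (1.39, edgeR adjusted p = 3.62e-05). Bsg, which binds S100a9 among other ligands, fell in reporter sdCAMs from 532 to 188 CPM (-1.26, edgeR adjusted p = 0.0116).

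Of 16 inducers and transcription factors of the acute phase response, 8 rose and 2 fell of 15 tested in each of WT and Ccr2-/- MG, 3 of 15 rose in WT sdCAMs, 10 of 16 in Ccr2-/- sdCAMs, 1 of 15 in reporter MG and 9 of 15 in reporter sdCAMs. Cebpb, which codes for the C/EBP factor of acute phase promoters, rose from 84.7 to 592 CPM in WT MG (2.71, edgeR adjusted p = 9.42e-07), from 101 to 327 CPM in WT sdCAMs (3.14, edgeR adjusted p = 0.012) and from 74.6 to 625 CPM in Ccr2-/- sdCAMs (3.21, edgeR adjusted p = 2.44e-07). Socs3, an inhibitor of STAT3 signalling, rose from 8.80 to 703 CPM in Ccr2-/- sdCAMs (6.47, edgeR adjusted p = 3.50e-09). Il6st, the shared receptor chain of interleukin-6, fell from 620 to 326 CPM in WT MG (-1.02, edgeR adjusted p = 0.00229).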

How the data were processed

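The authors deposited 3 tables of raw read counts per gene symbol, 18 columns each, with no value normalized. Libraries were made with a SMARTer ultra low input kit and Nextera XT and sequenced as single reads without molecular identifiers, so intervals and floors cover counting error only. Per the labels the reads were aligned with STAR 2.7.11a and counted with featureCounts 2.0.8. The strand setting is not given in the sources used here, and the sources name more than 1 genome build, so coordinates are printed only for the RefSeq promoters.

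Columns were matched to samples by name. Of 33280 symbols, 6948 had no count in any library. CPM and shares of counts used plain library totals. Changes were tested in R 4.3.3 with the quasi-likelihood test of edgeR 4.0.16 (filterByExpr, TMM factors, Benjamini-Hochberg adjustment over all genes tested, two-sided), with 1 coefficient per group. A fold against a group at 0 was set against a floor of 3 counts per library. MG and sdCAMs of a mouse are paired by design, and the correlation of their deviations from the group means was at most 0.17, so mouse was also fitted as a block. Alternatives included DESeq2 1.42.0, other scalings, no filter on low counts, each library left out in turn, the label mark as a covariate and the exchange of 2 columns. The exchange together with the block, and the omission of 7 libraries with fewer than 3000000 counts, were added after the data had been seen. The scripts were tested on simulated counts. The members and gene lists were chosen with earlier results of these data known. The text names the 7 members, up to 4 of the most abundant tested genes of each list, and for each member the 3 genes of at least 10 CPM whose group means were most like it.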

Additional observations from a re-analysis of the deposited data

Results flagged for a closer look

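The LPS change of 3 members differed between sdCAMs and MG of Ccr2-/- mice in a test of that difference (edgeR, 3 mice a group). Wfdc17 rose less in sdCAMs, with a log2 difference of -2.17. S100a8 rose more in sdCAMs, with a log2 difference of 6.39. S100a9 had an edgeR adjusted p of 0.0396 for the same difference, with counts at or near 0 in most of the libraries. All 3 calls were absent without the MG library of untreated mouse 1m.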

How the results depend on the processing

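The number of members called after LPS in WT sdCAMs (2) became 4 with library totals only, with DESeq2 and in a fit of the compared groups alone, and 5 without libraries under 3000000 counts, with the label mark as a covariate and in the marked libraries only. Without libraries under 3000000 counts the untreated and BLZ945 groups of WT sdCAMs held 1 library each. With the 2 reporter columns exchanged, the number in tdT- sdCAMs fell from 6 to 3 and that between tdT+ and tdT- cells from 4 to 0, which stayed 0 with mouse as a block. Between reporter sdCAMs and MG, exchange and block together called 2 members, Lcn2 and Hp, in place of 4, of which Lcn2 remained. In the interaction of cell type and LPS, Ccr2-/- mice gave 5 members in place of 3 without the low-count filter and 1 with mouse as a block, and reporter mice gave 2 in place of 0 without that filter and 1 with DESeq2. DESeq2 also lost Hp and Slpi in tdT- cells, Slpi in WT sdCAMs against MG (DESeq2 adjusted p = 0.261) and S100a8 in Ccr2-/- sdCAMs against MG (DESeq2 adjusted p = 0.051), and gained Hp in reporter MG and S100a9 in WT sdCAMs against MG. BLZ945 in Ccr2-/- MG gave 2 in place of 0 without that filter.

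Some log2 changes that were not called turned sign. These were Wfdc17 after LPS in tdT+ sdCAMs (4.14 with the exchange), Slpi there (0.00 without libraries under 3000000 counts), the WT interaction of Saa3 (-1.47 with library totals only), the reporter interaction of Wfdc17 (-0.09 with the block, -1.37 with block and exchange), Wfdc17 after BLZ945 in WT sdCAMs (0.10 without libraries under 3000000 counts, 0.21 with the mark as a covariate) and Hp between tdT+ and tdT- cells (0.63 with library totals only). S100a8 between tdT+ and tdT- cells, which was called, turned to 0.47 with the exchange. The cause was not tested.

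With 1 library left out, the LPS change of S100a8 in Ccr2-/- MG ran from -1.36 to 9.11 and that of Slpi in Ccr2-/- sdCAMs from 0.00 to 4.64. The interaction of Saa3 in WT ran from -0.35 to 1.93, of S100a8 in Ccr2-/- from -3.37 to 6.96 and of Wfdc17 in reporter mice from -5.68 to 1.87. S100a9 between WT sdCAMs and MG ran from -0.00 to 8.36 and Hp between tdT+ and tdT- cells from -0.75 to 0.09. For BLZ945, Saa3 and Lcn2 in WT MG ran from -0.92 to 1.26 and from -1.45 to 1.33, S100a8 and Wfdc17 in Ccr2-/- MG from -0.60 to 0.71 and from -0.44 to 0.21, and S100a8 in Ccr2-/- sdCAMs from -0.30 to 0.94. Members called ran from 0 to 3 in reporter MG after LPS and in the Ccr2-/- interaction, from 0 to 1 in the reporter interaction and from 0 to 2 for BLZ945 in WT sdCAMs. Over all members, 590 log2 changes kept direction and call with 1 library left out, 38 lost and 9 gained the call and 17 turned sign, and under the other settings 725 kept both, 26 lost and 33 gained the call and 9 turned sign.

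Among all genes called after LPS, library totals only moved the share called higher from 58.58 to 10.96% in WT sdCAMs and from 54.82 to 25.01% in tdT- sdCAMs, from 56.42 to 70.51% in tdT+ and from 57.78 to 44.09% in all reporter sdCAMs, and from 61.02 to 72.07% in reporter MG. Positive shares among interaction calls moved from 32.76 to 3.51% in WT (44.59% with DESeq2 size factors), 41.83 to 22.88% in Ccr2-/- and 33.08 to 14.47% in reporter mice. Between sdCAMs and MG it moved from 54.05 to 14.90% in WT (65.23% with DESeq2 size factors), 50.57 to 34.73% in Ccr2-/- and 82.21 to 35.86% in reporter mice, and between tdT+ and tdT- cells from 35.13 to 87.37% (24.79% with DESeq2 size factors). With mouse as a block, the calls of Slpi in WT sdCAMs against MG and of Lcn2 between tdT+ and tdT- cells were lost as well, and beyond those named here and above the block changed no other call. Low totals limit Slpi and S100a9, which lay near the floor of 3 counts in most libraries.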
